A study of Mus musculus with 20 samples.

Results

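The core circadian clock loop was read out as 10 genes, Arntl, Clock, Npas2, Per1, Per2, Per3, Cry1, Cry2, Nr1d1 and Nr1d2, chosen by symbol from the 35204 genes of the deposited gene table, and all 10 were among the 16306 genes that passed the filter on low counts. RNA of the terminal ileum was sequenced from 20 wild-type female C57BL/6 mice, 7 weeks old at the start of the diets, with 5 mice in each of 4 groups. Mice were fed a defined amino acid diet with tryptophan (control diet, CD) or without it (Trp-deficient diet, TDD) for 3 weeks, and either kept their specific pathogen-free (SPF) microbiota or drank water with ampicillin, vancomycin, metronidazole, neomycin and gentamycin (ABX). The groups are named CD, TDD, CD+ABX and TDD+ABX. The antibiotic water also held sucrose, so that antibiotics and sucrose cannot be told apart here. Each mouse was sampled once and the hour of sampling is not given in the sources used here, so a shift in the phase of a rhythm and a change of its mean level cannot be told apart.

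In the loop, ARNTL (also called BMAL1) pairs with CLOCK, or with its relative NPAS2, and the pair switches on genes that carry an E-box, among them the Per, Cry and Nr1d genes. PER and CRY proteins then enter the nucleus and repress that pair, which closes the main loop, while NR1D1 and NR1D2 (REV-ERB alpha and beta) repress Arntl from a ROR element. In tissues with a running clock, Arntl and the Per genes therefore peak at nearly opposite times of day, and in the intestine feeding time is a known setter of that phase.

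On GRCm38, with GENCODE M21 gene bounds, Arntl spans chr7:113207465-113314126, Clock chr5:76209868-76304792 and Npas2 chr1:39193731-39363236. Per1 spans chr11:69095217-69109960, Per2 chr1:91415982-91459324 and Per3 chr4:151003652-151044665. Cry1 spans chr10:85131700-85185064, Cry2 chr2:92403646-92434043, Nr1d1 chr11:98767932-98775333 and Nr1d2 chr14:18204054-18239127. Arntl, Npas2 and Per1 lie on the plus strand and the other 7 on the minus strand. The promoters of 4 members that moved differently in these mice are shown. They are examples of windows with matches to elements of the loop or, for Per3, of its outputs. They are RefSeq windows of 300 bases on GRCm38.p6, from 250 bases before the start site to 50 after it, written 5′ to 3′ along the gene, with motif matches in capitals. Arntl (chr7:113207261-113207560, plus strand) holds the ROR element core AGGTCA at position 32 after its start. Per1 (chr11:69098699-69098998, plus strand) holds the E-box CACGTG at -166 and the ROR element core, on the opposite strand as TGACCT, at -137. Per3 (chr4:151044616-151044915, minus strand) holds the D-box TTATGTAA, the element of the PAR bZIP factors described further on, at -205 and again at -158. Cry1 (chr10:85185005-85185304, minus strand) holds CACGTG at -60 and the related CACGTT, on the opposite strand as AACGTG, at -79.
Arntl: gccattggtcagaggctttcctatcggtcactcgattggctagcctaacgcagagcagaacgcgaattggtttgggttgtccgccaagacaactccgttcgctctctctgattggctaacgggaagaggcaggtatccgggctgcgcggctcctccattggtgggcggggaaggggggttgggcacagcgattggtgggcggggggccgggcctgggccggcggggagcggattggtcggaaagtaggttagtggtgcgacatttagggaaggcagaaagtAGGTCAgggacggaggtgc
Per1: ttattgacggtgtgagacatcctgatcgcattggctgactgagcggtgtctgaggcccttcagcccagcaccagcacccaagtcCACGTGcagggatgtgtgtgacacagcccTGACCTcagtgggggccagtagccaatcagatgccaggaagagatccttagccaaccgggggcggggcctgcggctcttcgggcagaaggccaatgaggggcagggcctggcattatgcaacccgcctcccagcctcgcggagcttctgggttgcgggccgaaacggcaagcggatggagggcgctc
Per3: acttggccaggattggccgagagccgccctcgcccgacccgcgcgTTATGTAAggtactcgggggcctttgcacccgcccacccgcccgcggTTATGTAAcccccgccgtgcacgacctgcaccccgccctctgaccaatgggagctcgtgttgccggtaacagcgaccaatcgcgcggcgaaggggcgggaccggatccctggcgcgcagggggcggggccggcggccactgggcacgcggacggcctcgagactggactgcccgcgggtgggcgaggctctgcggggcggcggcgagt
Cry1: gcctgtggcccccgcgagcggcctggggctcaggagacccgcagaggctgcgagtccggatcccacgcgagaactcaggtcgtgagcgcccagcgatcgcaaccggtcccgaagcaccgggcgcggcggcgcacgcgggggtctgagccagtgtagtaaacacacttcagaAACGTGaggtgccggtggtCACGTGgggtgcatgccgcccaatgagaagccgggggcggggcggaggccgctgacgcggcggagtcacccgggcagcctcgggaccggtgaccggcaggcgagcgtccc
The 32851 such windows in the RefSeq table belonged to 27025 genes. Of these genes, 8.093% held CACGTG in any window, 5.439% held CACGTT, 18.13% held AGGTCA and 1.232% held TTATGTAA or TTACGTAA, each counted on both strands. Of the 9 members with a window (Per2 had none), CACGTG was found in Per1 and Cry1, CACGTT in Cry1, Cry2 and Nr1d1, AGGTCA in Arntl, Clock, Per1 and Nr1d2, and the D-box in Per3. Arntl, Clock and Per1 had several windows, and the matches of each lay in a single one of them. A match describes these letters in this window and is not a measurement of binding.

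The libraries held 36676963 to 58662617 estimated counts, and the lowest count of any member in any mouse was 258, for Per3 in CD mouse 1. The tissue carried the epithelial markers Vil1 and Epcam in every group. Levels are given as CPM, counts scaled to the total of each library after adjustment of that total by TMM scaling. The markers of the distal ileum were low without antibiotics. Fabp6 had a mean of 1.17 CPM in CD mice and 1.40 CPM in TDD mice, against 41.6 CPM in CD+ABX and 20.1 CPM in TDD+ABX. In contrast, Lct and Gata4, typical of more proximal small intestine, had group means of at least 2029.8 and 98.8 CPM. Slc10a2, the ileal bile acid transporter, had means of 2.36 and 5.89 CPM without and 39.5 and 37.05 CPM with antibiotics. These markers go against the label most clearly in mice without antibiotics, but with antibiotics too the means of Fabp6 and Slc10a2 stayed far below that of Lct. In all 4 groups, terminal ileum therefore stands here for the labelled segment, and whether the same segment was taken in every group was not tested. Smooth muscle markers (6 genes, none at 0) summed to between 472 and 2508 CPM over single CD mice and passed no test between groups. Lymphocyte markers (7 genes) summed to 81.1 to 157 CPM in CD mice and to 45.1 to 58.7 CPM in CD+ABX mice. Of the 7, 4 fell with antibiotics on CD at an adjusted p under 0.05 (edgeR), against 12.6% of all genes in either direction. In bulk tissue, fewer cells of a type and less RNA per cell cannot be told apart. Over the 20 relations between the 10 members and these sums of smooth muscle and lymphocyte markers, computed within groups over the 20 mice after seeing the data, r ran from -0.47 to 0.22 and none passed (lowest adjusted permutation p 0.657 for Pearson's r and 0.651 for Spearman's rho, with an unadjusted p under 0.05 for 0 of 20 by r and, by rho, for Cry1 with lymphocyte markers). Of the markers of stroma, Paneth cells and plasma cells, 1 of 4 in each list passed between TDD and CD in SPF mice, against 14.4% of all genes tested. Col1a1 had a log2 fold change of -1.09 (SE 0.142, adjusted p = 7.6e-05, edgeR), while Pecam1, Cdh5 and Pdgfra of the same list had 0.26, -0.15 and -0.04 (adjusted p = 0.0805, 0.449 and 0.856, edgeR). The Paneth cell marker Mmp7 had 0.84 (SE 0.228, adjusted p = 0.0184, edgeR) and the plasma cell marker Jchain 0.66 (SE 0.193, adjusted p = 0.027, edgeR). In ABX-treated mice Col1a1 fell with -0.73 (SE 0.141, adjusted p = 0.0132, edgeR), and no other gene of these 3 lists passed. The part of these markers in the diet comparisons was not tested.

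The first comparison asked which loop genes differed between TDD and CD in SPF mice. Arntl fell and Per1, Per2 and Per3 rose, all by at least 2-fold, and Cry2 and Nr1d2 rose by less. Clock, Npas2, Cry1 and Nr1d1 did not pass the test in the fit of all mice, though Clock and Nr1d1 passed in some other fits given below. Of the activators, Arntl stood at 52.7, 32.8, 58.6, 40.01 and 56.6 CPM in the 5 CD mice and at 12.3, 18.8, 16.7, 15.9 and 13.99 CPM in the 5 TDD mice. Every TDD mouse lay below every CD mouse, and the TDD mice spread over a narrower range in CPM than the CD mice did. The group means were 48.1 ± 11.2 and 15.5 ± 2.48 CPM (SD, n = 5), a 3.1-fold fall with a log2 fold change of -1.63 (SE 0.258, adjusted p = 0.000486, edgeR). Its partner Clock averaged 77.2 ± 12.3 CPM in CD mice and 65.1 ± 4.67 CPM in TDD mice (SD, n = 5), with overlapping mice and a log2 fold change of -0.25 (SE 0.0969, adjusted p = 0.0983, edgeR) whose 95% interval ran from -0.45 to -0.04. Without CD mouse 2 the log2 fold change of Clock was -0.34 (adjusted p = 0.00632, edgeR), which passed the test under 2-fold. Npas2, which can stand in for Clock, had 52.95, 24.6, 54.7, 46.2 and 50.6 CPM in CD mice and 28.6, 29.00, 40.2, 39.8 and 30.5 CPM in TDD mice. All CD mice but mouse 2 lay above all TDD mice, and that mouse lay below them. The log2 fold change of -0.45 (SE 0.237, adjusted p = 0.229, edgeR) did not pass, and neither did the -0.61 found without that mouse (adjusted p = 0.0525, edgeR).

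The 3 Per genes, which encode the repressors that accumulate with CRY, all rose on TDD in SPF mice. Per2 stood at 12.9, 16.1, 13.2, 18.1 and 13.01 CPM in CD mice and at 57.5, 46.7, 42.6, 44.1 and 56.8 CPM in TDD mice. Every TDD mouse lay far above every CD mouse. Its log2 fold change was 1.76 (SE 0.224, adjusted p = 7.25e-05, edgeR), or 3.38-fold. Per3, whose protein is thought to be less needed for the rhythm than those of Per1 and Per2, stood at 7.11, 9.40, 7.46, 11.6 and 6.15 CPM in CD mice and at 50.1, 26.9, 35.7, 35.9 and 47.98 CPM in TDD mice. It had the widest gap of the 10 members, 4.71-fold, with a log2 fold change of 2.24 (SE 0.325, adjusted p = 0.000234, edgeR). Per1, which also answers directly to hormones and cell stress, had 26.97, 16.9, 44.2, 46.9 and 29.5 CPM in CD mice and 88.9, 62.5, 71.2, 49.7 and 59.2 CPM in TDD mice. The highest CD mouse and the lowest TDD mouse were close to each other, and the log2 fold change of 1.01 (SE 0.307, adjusted p = 0.034, edgeR) lay at the 2-fold limit. That call of Per1 was lost in 7 of the 20 fits with 1 mouse left out, by leaving out any of CD mice 1, 2 and 5 or of TDD mice 1, 2, 3 and 5. Over all 20 of these fits its log2 fold change ran from 0.84 to 1.17. The call was kept in 8 of 11 alternative settings. It was lost with log2(TPM + 1) by limma (log2 fold change 0.94), with no filter (adjusted p = 0.0743, edgeR) and with mice numbered alike taken as a block (adjusted p = 0.0774, edgeR).

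Of the Cry genes, which encode the main repressors of the CLOCK and ARNTL pair, Cry2 rose on TDD in SPF mice and Cry1 did not pass the test. Cry2 stood at 14.7, 12.9, 11.2, 16.6 and 13.4 CPM on CD and at 27.1, 19.1, 24.2, 24.5 and 26.8 CPM on TDD. The groups did not overlap, and the log2 fold change was 0.82 (SE 0.149, adjusted p = 0.00121, edgeR). Cry1 was at 9.86, 6.54, 15.96, 9.36 and 12.5 CPM on CD and at 11.9, 11.8, 10.03, 12.2 and 13.99 CPM on TDD. The TDD mice lay inside the range of the CD mice, and the log2 fold change was 0.14 (SE 0.206, adjusted p = 0.7, edgeR) with a 95% interval from -0.29 to 0.57. The difference between Cry1 and Cry2 was not tested.

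Among the nuclear receptors that repress Arntl, Nr1d2 stood at 58.9, 55.9, 61.03, 77.6 and 43.1 CPM on CD and at 128, 91.8, 122, 108 and 114 CPM on TDD, with no overlap and a log2 fold change of 0.93 (SE 0.197, adjusted p = 0.00431, edgeR). Nr1d1 was at 186, 136, 125, 162 and 118 CPM on CD and at 289, 172, 204, 230.3 and 196 CPM on TDD. TDD mouse 2 lay below the highest CD mouse, and the other 4 TDD mice lay above it. The log2 fold change of Nr1d1 was 0.59 (SE 0.212, adjusted p = 0.0715, edgeR), with a 95% interval from 0.14 to 1.03. Over the 20 fits with 1 mouse left out its adjusted p ran from 0.0343 to 0.175 (edgeR). Over the alternative settings it ran from 0.038 to 0.129 (edgeR, DESeq2 or limma). Nr1d1 shares 263 exon bases with Thra on the opposite strand and Cry2 shares 295 with D930015M05Rik, and whether the counting used strand is not given in the sources used here, so part of their counts may belong to those genes.

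In all, 4 of the 10 members passed both limits, an adjusted p under 0.05 and at least 2-fold, against 1.83% of all genes tested. Without the fold limit 6 of 10 passed, against 14.4% of all genes. For 6 of the 10 the single mice of the groups did not overlap, against 9.58% of all genes. The median log2 fold change was 0.71 over the members and 0.01 over all genes tested.

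**Figure D1:**
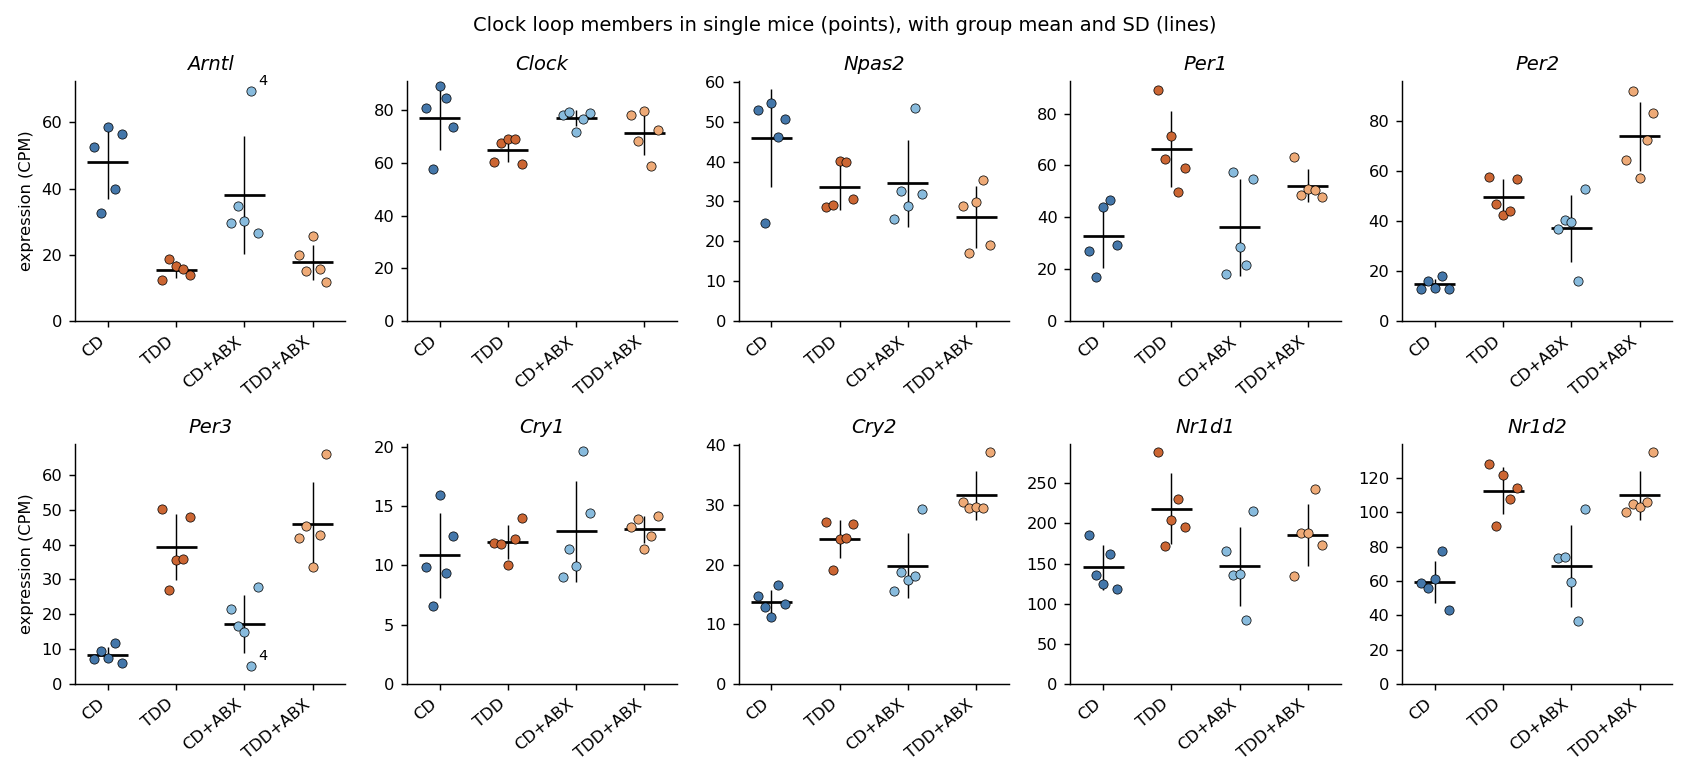
Expression of the 10 clock loop genes in CPM (vertical axes, from 0) in the 4 groups, with a point for each of the 5 mice of a group, a horizontal line at the mean and a vertical line of 1 SD either way. Arntl sits at 32.8 to 58.6 CPM in CD mice and at 12.3 to 18.8 CPM in TDD mice, Per2 and Per3 run the other way, and the mouse marked 4 in CD+ABX has the highest Arntl and the lowest Per3 of all 20.

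In ABX-treated mice, the comparison of TDD+ABX with CD+ABX asked the same question under antibiotics. Arntl fell and Per2, Per3 and Cry2 rose there too, and the other 6 members did not pass the test in the fit of all mice. Arntl stood at 29.7, 34.8, 30.3, 69.6 and 26.5 CPM in CD+ABX mice and at 19.9, 15.3, 25.7, 15.9 and 11.97 CPM in TDD+ABX mice. The groups were separated by less than 1 CPM, between CD+ABX mouse 5 and TDD+ABX mouse 3. The log2 fold change was -1.10 (SE 0.255, adjusted p = 0.0364, edgeR). Per3 stood at 21.5, 16.5, 15.01, 5.24 and 27.8 CPM in CD+ABX mice and at 41.8, 45.5, 33.5, 42.9 and 65.95 CPM in TDD+ABX mice, without overlap. Its log2 fold change was 1.42 (SE 0.312, adjusted p = 0.0289, edgeR), or 2.67-fold. Per2 stood at 36.9, 40.3, 39.5, 15.9 and 52.6 CPM and at 64.4, 91.8, 57.02, 72.3 and 82.9 CPM in the same groups, also without overlap. Its log2 fold change of 0.99 (SE 0.216, adjusted p = 0.0265, edgeR) was just under the 2-fold limit. The adjusted p of Per2 ran from 0.0132 to 0.0651 over the 20 fits with 1 mouse left out (edgeR). With the alternative settings it ran from 0.000728 to 0.108 (edgeR, DESeq2 or limma).

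Cry2 stood at 15.6, 18.8, 17.4, 18.2 and 29.3 CPM in CD+ABX mice and at 30.5, 29.5, 29.8, 29.4 and 38.9 CPM in TDD+ABX mice. Only CD+ABX mouse 5 came near the TDD+ABX mice, and the log2 fold change was 0.67 (SE 0.147, adjusted p = 0.0265, edgeR). The adjusted p of Cry2 ran from 0.0017 to 0.0854 with 1 mouse left out (edgeR) and from 0.00198 to 0.067 with the alternative settings (edgeR, DESeq2 or limma). Nr1d2 had a log2 fold change of 0.67 (SE 0.196, adjusted p = 0.0899, edgeR), with only CD+ABX mouse 5, at 102 CPM, inside the TDD+ABX range of 99.9 to 135 CPM. Its adjusted p ran from 0.0244 to 0.203 over the 20 fits with 1 mouse left out (edgeR). Over the alternative settings it ran from 0.0245 to 0.178 (edgeR, DESeq2 or limma). Per1 was split within the CD+ABX group, with mice 2 and 5 at 57.6 and 54.8 CPM and the other 3 at 18.2 to 28.8 CPM, and its log2 fold change was 0.53 (SE 0.304, adjusted p = 0.446, edgeR). For Clock, Npas2, Cry1 and Nr1d1 the log2 fold changes were -0.10, -0.41, 0.02 and 0.34 (adjusted p = 0.666, 0.455, 0.98 and 0.487, edgeR). Passing both limits were 2 of the 10 members, against 0.307% of all genes tested, 4 of 10 passed without the fold limit, against 1.64%, and 4 of 10 had groups that did not overlap, against 4.78%. The median log2 fold change was 0.43 over the members and -0.00299 over all genes. The call of Arntl there was lost on leaving out any of CD+ABX mice 2 and 4 or of TDD+ABX mice 1, 2, 4 and 5 (log2 fold change from -1.28 to -0.77 over the 20 fits with 1 mouse left out), and that of Per3 on leaving out any of CD+ABX mice 2 and 3 or of TDD+ABX mice 1, 2, 4 and 5 (1.18 to 1.66).

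CD+ABX mouse 4 stood apart from the other 4 mice of its group across the loop. It had 69.6 CPM of Arntl and 53.5 CPM of Npas2, the others at most 34.8 and 32.6 CPM, and it was lowest of its group in Per2, Per3, Nr1d1 and Nr1d2, with 15.9, 5.24, 79.9 and 36.4 CPM. Its clock outputs Dbp and Nfil3 were at 3.99 and 19.1 CPM, against 31.3 to 63.9 CPM and 3.39 to 5.68 CPM in the other 4 mice. Its total count lay inside the range of the other 4, and its smooth muscle markers summed to 1860 CPM, inside the range of the other 4, while its lymphocyte markers, at 45.1 CPM, and its proximal markers Lct and Gata4, at 1558 CPM, were the lowest of the group. Without this mouse, the log2 fold change of TDD+ABX against CD+ABX was -0.77 for Arntl (adjusted p = 0.0846, edgeR), 1.18 for Per3 (adjusted p = 0.0299, edgeR), 0.79 for Per2 (adjusted p = 0.0212, edgeR) and 0.63 for Cry2 (adjusted p = 0.0854, edgeR). The call of Arntl in ABX-treated mice thus rested on this mouse among others.

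**Figure D2:**
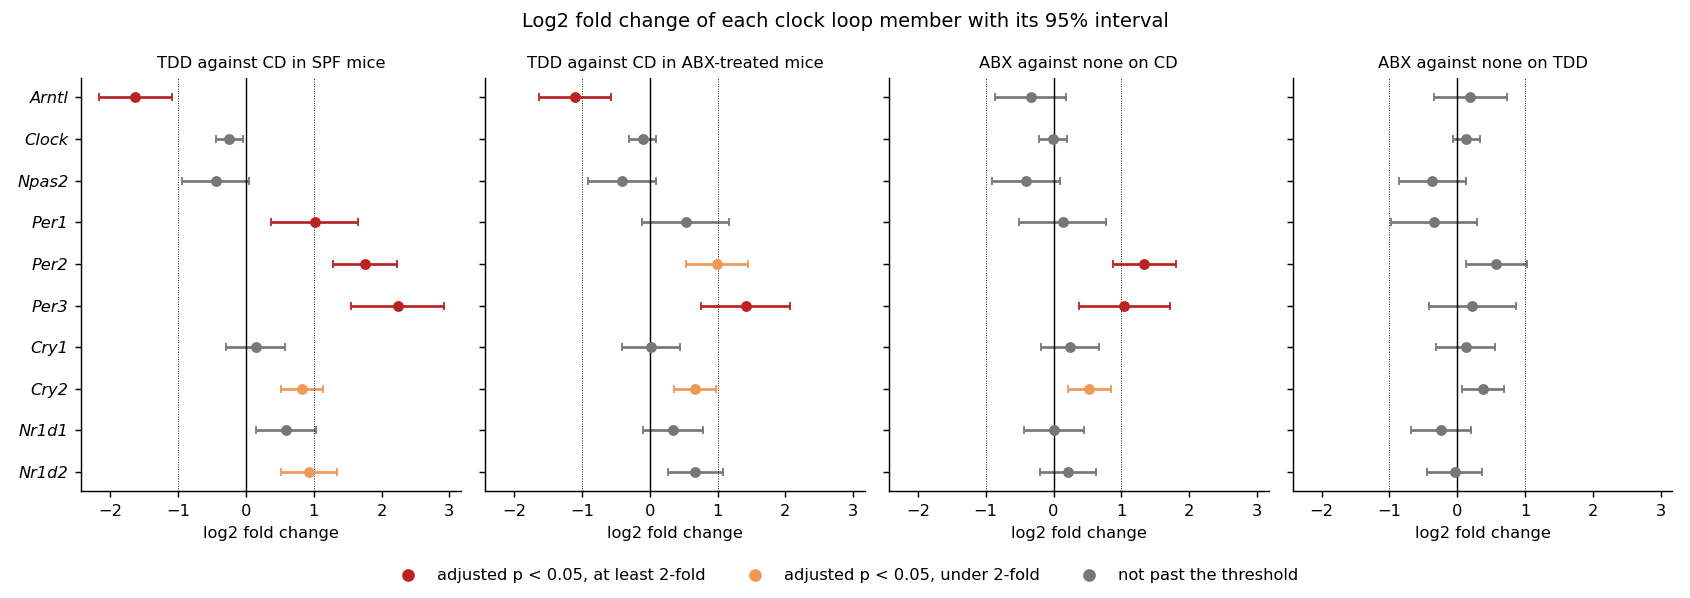
Log2 fold change (horizontal axes) of the 10 clock loop genes with its 95% interval in the 4 comparisons between groups, coloured by whether both limits, only the adjusted p or neither was passed, with dotted lines at 2-fold. Arntl lies to the left of 0 and the Per genes to the right in both diet comparisons, and on TDD no member passed with antibiotics.

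Whether the diet effect differed with antibiotics was tested as the interaction of diet and ABX. No member passed (0 of 10 with or without the fold limit, edgeR, against 0.0245% and 0.0368% of all genes tested), and 1 of 10 had an unadjusted p under 0.05. That was Per2, whose diet effect was smaller in ABX-treated mice by 0.77 on the log2 scale (adjusted p = 0.446, edgeR). The interaction was -0.82 for Per3 with a 95% interval from -1.74 to 0.10, and 0.53 for Arntl with one from -0.22 to 1.28. DESeq2 and limma-voom also called 0 of 10 in this test.

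The comparisons of antibiotics against none within a diet share their groups with the diet comparisons, so their values are given side by side and not as independent evidence. On CD, Per2, Per3 and Cry2 rose with antibiotics in the fit of all mice. Per2 had a log2 fold change of 1.34 (SE 0.222, adjusted p = 0.00108, edgeR) and Per3 of 1.04 (SE 0.319, adjusted p = 0.0393, edgeR), both past 2-fold, and Cry2 of 0.53 (SE 0.149, adjusted p = 0.0247, edgeR). In each of the 3 genes the CD+ABX mice overlapped the CD mice, and for Per2 and Per3 that overlap came from CD+ABX mouse 4 alone, since the other 4 lay above every CD mouse. Without it, the log2 fold change on CD was 1.54 for Per2 (adjusted p = 4.92e-05, edgeR), 1.28 for Per3 (adjusted p = 0.00325, edgeR) and -0.66 for Arntl, which then passed the test without reaching 2-fold (adjusted p = 0.0419, edgeR), against -0.33 with it (adjusted p = 0.44, edgeR). On CD, 2 of the 10 members passed both limits, against 2.25% of all genes, 3 of 10 the adjusted p alone, against 12.6%, and 0 of 10 had groups without overlap, against 9.74%. Lymphocyte markers fell in the same comparison, as given above, and their part in it was not tested. The call of Per3 on CD was lost on leaving out any of CD mice 1, 3 and 5 or of CD+ABX mice 1, 2, 3 and 5 (log2 fold change from 0.80 to 1.28 over the 20 fits). For Cry2 the log2 fold change on CD ran from 0.35 to 0.61 over the same fits, with an adjusted p from 0.016 to 0.07 (edgeR). With the alternative settings the adjusted p of Cry2 ran from 0.00694 to 0.0718 (edgeR, DESeq2 or limma).

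On TDD, no member passed the test of antibiotics against none (0 of 10 by edgeR with or without the fold limit, against 1.63% and 15.4% of all genes, and 0 with both limits by DESeq2 and limma-voom), and 2 of 10 had an unadjusted p under 0.05. These were Per2, with a log2 fold change of 0.57 (SE 0.215, adjusted p = 0.0769, edgeR), and Cry2, with 0.38 (SE 0.146, adjusted p = 0.0861, edgeR). Without the fold limit, Per2 passed by DESeq2 (adjusted p = 0.0351) and without CD+ABX mouse 4 (adjusted p = 0.0111, edgeR), and Cry2 without CD+ABX mouse 5 (adjusted p = 0.0251, edgeR). Both also passed with the groups of this comparison fitted alone (adjusted p = 0.02 for Per2 and 0.035 for Cry2, edgeR) and, by limma, with log2(TPM + 1) (adjusted p = 0.0275 and 0.0195) and log2(TPM + 0.1) (adjusted p = 0.0376 and 0.0216). Cry2 was the 1 member of 10 whose groups did not overlap, against 11.0% of all genes. Arntl and Per3 had 95% intervals from -0.35 to 0.73 and from -0.42 to 0.86. Per2 and Cry2 had their lowest group means in CD and their highest in TDD+ABX, at 14.7 ± 2.34 and 73.7 ± 13.96 CPM for Per2 and 13.8 ± 2.02 and 31.6 ± 4.09 CPM for Cry2 (SD, n = 5). The means of Per3 and Cry1 were also lowest in CD and highest in TDD+ABX, at 8.35 and 45.9 CPM for Per3 and 10.8 and 13.05 CPM for Cry1.

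Levels of different genes were compared per length, as TPM, which scales each transcript by its length and each library by its total, summed over the transcripts of a gene. Nr1d1 was the most abundant member in every group, at 80.4 ± 14.8 TPM in CD and 114 ± 20.5 TPM in TDD mice (SD, n = 5), and no mouse of another member came up to its lowest mouse in the same group. In CD mice the order below it was Arntl, Nr1d2, Npas2, Clock, Per1, Cry1, Cry2, Per2 and Per3, and of the 9 neighbouring pairs in that order only Nr1d1 and Arntl, and Cry2 and Per2, had mice that did not overlap. In TDD mice the order was Nr1d1, Nr1d2, Per1, Npas2, Per2, Per3, Clock, Cry2, Arntl and Cry1, with Nr1d1 above Nr1d2 and Nr1d2 above Per1 in every mouse and overlap in the other 7 pairs. Arntl was thus at rank 2 in CD mice, with 24.2 ± 5.55 TPM, and at rank 9 in TDD mice, with 7.42 ± 1.39 TPM (SD, n = 5). In CD+ABX mice only Nr1d1 stood apart from its neighbour, Nr1d2, and in TDD+ABX mice the separate pairs were Nr1d1 and Nr1d2, and Nr1d2 and Per2.

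The level of Per3 over that of Arntl, both in TPM, put each mouse on a single scale. It was 0.0725, 0.151, 0.0695, 0.163 and 0.0578 in the CD mice and 2.29, 0.818, 1.19, 1.24 and 1.93 in the TDD mice. With antibiotics it was 0.396, 0.245, 0.273, 0.0403 and 0.583 on CD and 1.13, 1.61, 0.707, 1.49 and 3.003 on TDD. All 10 mice on TDD had a higher ratio than all 10 on CD, which follows from members already shown to differ and is given as a description. On CD, the 4 ABX-treated mice other than mouse 4 had ratios above all 5 untreated mice, and mouse 4 had the lowest of all 20. On TDD, the ABX-treated mice spanned the whole range of the untreated ones, from 0.707 to 3.003.

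**Figure D3:**
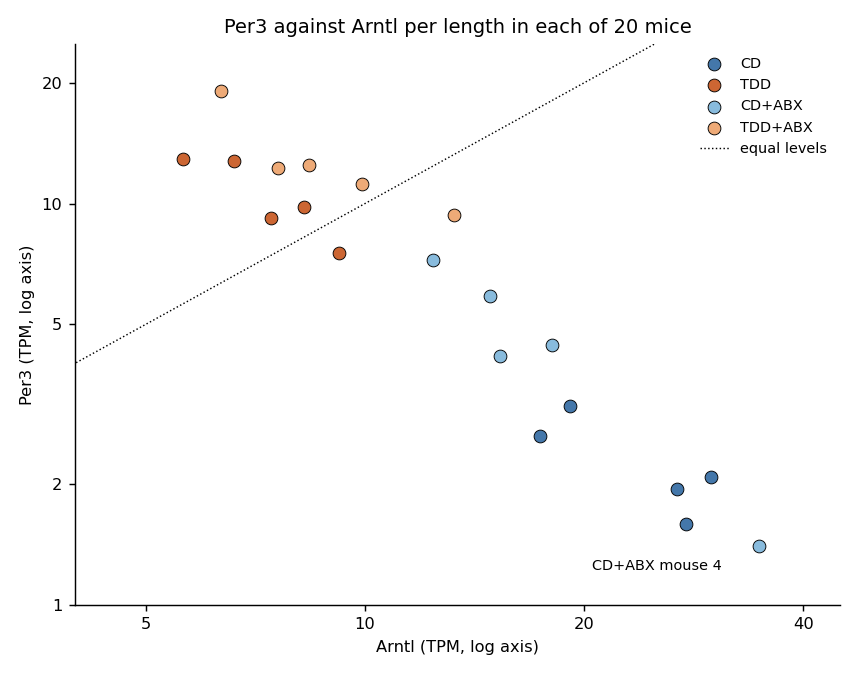
Level of Per3 against that of Arntl, both in TPM on log axes, with a point for each of the 20 mice, coloured by group, and a dotted line where both levels are equal. Mice on CD lie at the lower right and mice on TDD at the upper left, and CD+ABX mouse 4, at 34.7 TPM of Arntl and 1.40 TPM of Per3, lies beyond the CD mice.

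For Per3, transcripts not annotated as protein coding held the larger share of the TPM, 55.4% ± 3.69 in CD and 58.9% ± 3.34 in TDD mice (SD, n = 5), so that the level of Per3 was in large part that of such transcripts. The share was 26.2% ± 6.12 for Nr1d2 and 13.9% ± 1.84 for Nr1d1 in CD mice, and under 6% on average for each other member in each group. For short reads assigned by likelihood, how reads are divided between transcripts of a gene is less certain than their sum.

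Mice of the same group also differed from each other, and several members varied together from mouse to mouse. For each pair of members, log2(CPM + 4) was taken after subtraction of the group mean and correlated over the 20 mice, so that the group differences above do not enter. Of the 45 pairs, 9 passed an adjusted permutation p of 0.05 by Pearson's r, 5 of them positive and 4 negative, 7 passed by Spearman's rho, 6 passed by both, and 16 had an unadjusted p under 0.05 by Pearson's r. Arntl and Per3 ran against each other (r = -0.90, adjusted permutation p = 0.00045, rho = -0.90, adjusted permutation p = 0.0009), as did Arntl and Per2 (r = -0.89, adjusted permutation p = 0.00146, rho = -0.77, adjusted permutation p = 0.00596). Per3 and Nr1d2 varied together (r = 0.91, adjusted permutation p = 0.00045, rho = 0.78, adjusted permutation p = 0.0027), with an unadjusted p of 1e-05 that is the smallest these permutations can give, and so did Per2 and Per3 (r = 0.89, adjusted permutation p = 0.00146, rho = 0.83, adjusted permutation p = 0.0027) and Arntl and Npas2 (r = 0.75, adjusted permutation p = 0.0199, rho = 0.75, adjusted permutation p = 0.00999). Npas2 ran against Per2 (r = -0.67, adjusted permutation p = 0.0212, rho = -0.67, adjusted permutation p = 0.0313). Past the threshold by Pearson's r alone were Arntl with Nr1d2 (r = -0.74, adjusted permutation p = 0.0199, rho = -0.58, adjusted permutation p = 0.0626), Per2 with Nr1d2 (r = 0.80, adjusted permutation p = 0.0199, rho = 0.59, adjusted permutation p = 0.057) and Nr1d1 with Nr1d2 (r = 0.75, adjusted permutation p = 0.0199, rho = 0.60, adjusted permutation p = 0.057). Npas2 with Per3 passed by Spearman's rho alone (r = -0.57, adjusted permutation p = 0.0668, rho = -0.62, adjusted permutation p = 0.0462).

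CD+ABX mouse 4 weighs on these values. Without it, r was -0.81 for Arntl and Per3, -0.78 for Arntl and Per2, 0.82 for Per3 and Nr1d2, 0.76 for Per2 and Per3, 0.66 for Arntl and Npas2 and -0.53 for Npas2 and Per2. Without the 2 mice farthest from the median of the first gene, it was -0.82, -0.78, 0.82, 0.89, 0.63 and -0.63 for the same 6 pairs. For the 3 pairs past the threshold by Pearson's r alone, Arntl with Nr1d2, Per2 with Nr1d2 and Nr1d1 with Nr1d2, r was -0.50, 0.56 and 0.57 without CD+ABX mouse 4, and -0.55, 0.82 and 0.54 without the 2 farthest mice. For Npas2 with Per3 it was -0.37 without CD+ABX mouse 4 and -0.61 without the 2 farthest mice. Within the single groups of 5 mice, r of Arntl and Per3 was -0.77 in CD, -0.97 in TDD, -0.96 in CD+ABX and -0.93 in TDD+ABX. It ran from -0.97 to -0.80 over the groups for Arntl and Per2, from 0.31 to 0.93 for Arntl and Npas2, from -0.83 to -0.52 for Npas2 and Per2, from 0.71 to 0.97 for Per2 and Per3 and from 0.82 to 0.98 for Per3 and Nr1d2. The ranges were wide for Arntl with Nr1d2 (-0.90 to -0.36), Per2 with Nr1d2 (0.36 to 0.95) and Nr1d1 with Nr1d2 (0.05 to 0.97). Clock, Cry1, Per1 and Cry2 were in no pair that passed.

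**Figure D4:**
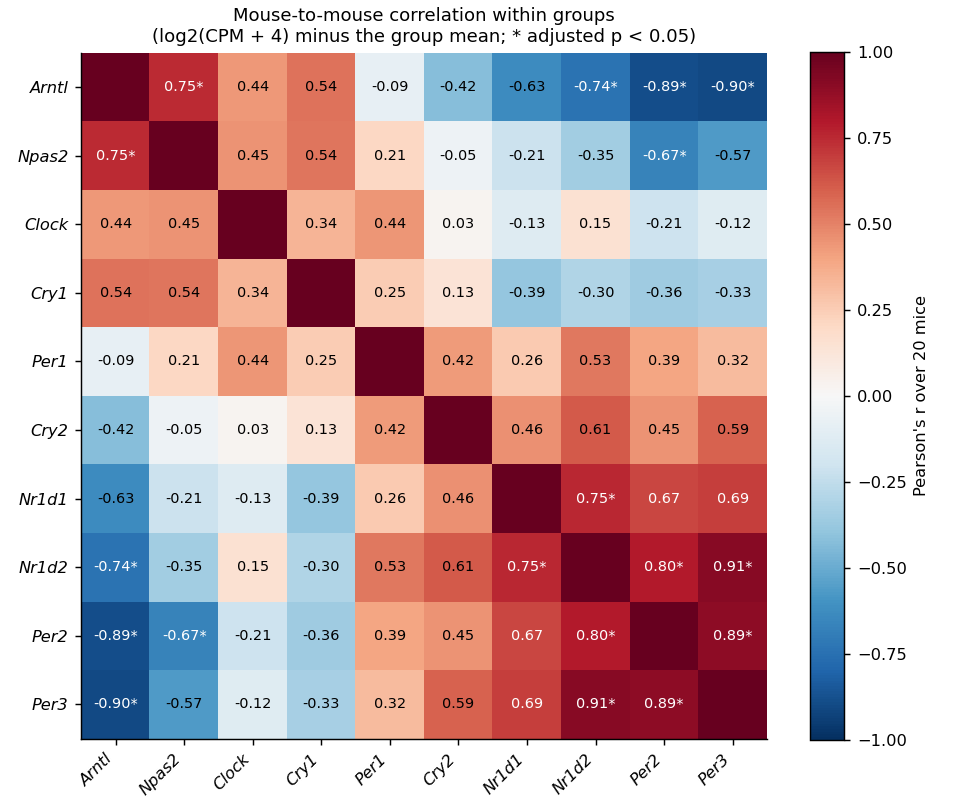
Pearson's r of each pair of clock loop genes (rows and columns) over 20 mice after subtraction of the group means, from -1 in blue to 1 in red, with a star where the adjusted permutation p was under 0.05. Arntl and Npas2 form a block with r = 0.75, Per2, Per3 and Nr1d2 form another with r from 0.80 to 0.91, and Arntl is negative against each of those 3.

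Across all 20 mice, with the group means left in, the 5 genes outside the loop whose log2(CPM + 4) followed Arntl most closely were Aagab, Dab1, Stk38, Pnp2 and Nol4l (Pearson's r from 0.93 to 0.97), and the 5 that ran most against it were Dbp, Tef, Hlf, Slc6a7 and 2810408A11Rik (r from -0.97 to -0.94). For Per3 the closest were Tef, Dbp, Hlf, Usp2 and Ciart (r from 0.94 to 0.99), all of them known clock-controlled genes, and the most opposed were Aagab, Nfil3, Dab1, Apol10c-ps and Glipr2 (r from -0.96 to -0.92). For Nr1d1 the most opposed were Gsdmc, Zdhhc2, Cdc37, Coa6 and Tor3a (r from -0.86 to -0.80). These 20 points share 4 groups whose means differ, so the values describe likeness of pattern and no p is given.

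Outside the loop, 4 factors that act through the D-box carry its output. The PAR bZIP factors DBP, TEF and HLF activate through it, and NFIL3, a bZIP factor outside the PAR family, represses through it. In SPF mice all 4 passed both limits, against 1.83% of all genes tested, with Dbp, Tef and Hlf higher on TDD and Nfil3 lower. Hlf averaged 4.44 ± 1.63 CPM in CD mice and 31.04 ± 7.81 CPM in TDD mice (SD, n = 5), with single mice at 2.15 to 6.52 and 23.6 to 41.8 CPM and a log2 fold change of 2.81 (SE 0.391, adjusted p = 0.000173, edgeR). In ABX-treated mice 0 of the 4 passed an adjusted p of 0.05, against 1.64% of all genes tested (edgeR, all 4 with an unadjusted p under 0.05). Hlf was at 11.2 ± 5.66 and 22.7 ± 4.02 CPM there (SD, n = 5), with a log2 fold change of 1.02 (SE 0.364, adjusted p = 0.18, edgeR). The log2 fold changes in ABX-treated mice were 1.59 for Dbp, 1.11 for Tef and -1.37 for Nfil3 (adjusted p = 0.099, 0.0585 and 0.0699, edgeR). Hlf also rose with antibiotics on CD, with a log2 fold change of 1.33 (SE 0.381, adjusted p = 0.0282, edgeR). The interaction passed for 0 of the 4 by edgeR, against 0.0368% of all genes tested, and Dbp, Tef and Hlf had an unadjusted p under 0.05 there.

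Of 15 transcriptional modifiers of the loop (among them BHLHE40 and BHLHE41, CIART, CIPC and cofactors), 3 were higher on TDD in SPF mice and 0 lower at an adjusted p under 0.05, against 14.4% of all genes in either direction, and 2 passed both limits, against 1.83%. Ciart, a repressor of CLOCK and ARNTL, was at 0.253 to 0.734 CPM in CD and 2.96 to 10.8 CPM in TDD mice. Bhlhe41, a repressor at E-boxes, was at 0.436 to 1.44 and 1.42 to 2.84 CPM. The other was Cipc, another repressor of that pair, with a log2 fold change of 0.71 (SE 0.137, adjusted p = 0.00206, edgeR). In ABX-treated mice 1 of the 15 was higher and 0 lower, against 1.64% of all genes in either direction. That gene, Ciart, passed both limits there too, against 0.307%.

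Of 14 kinases, ubiquitin ligases and deubiquitinases that act on clock proteins, 2 were higher (Csnk1e and Usp2) and 1 lower (Fbxl21) on TDD in SPF mice, against 14.4% of all genes in either direction, and only Usp2 passed both limits, against 1.83%. Usp2, a deubiquitinase under clock control, averaged 14.6 ± 1.79 CPM in CD mice and 37.3 ± 7.44 CPM in TDD mice (SD, n = 5), with a log2 fold change of 1.36 (SE 0.181, adjusted p = 0.000103, edgeR). Fbxl21, which encodes a ligase for CRY proteins, had a log2 fold change of -0.94 (SE 0.169, adjusted p = 0.0011, edgeR) in SPF mice and of -0.70 (SE 0.17, adjusted p = 0.0421, edgeR) in ABX-treated mice. It was the 1 of the 14 that passed in ABX-treated mice, against 1.64% of all genes tested. The medians in SPF mice were 2.41 over the 4 D-box factors, 0.12 over the 15 modifiers and 0.03 over the 14 kinases and ubiquitin enzymes, against 0.01 over all genes tested. The first of these medians pools the higher Dbp, Tef and Hlf with the lower Nfil3, at -2.29.

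**Figure D5:**
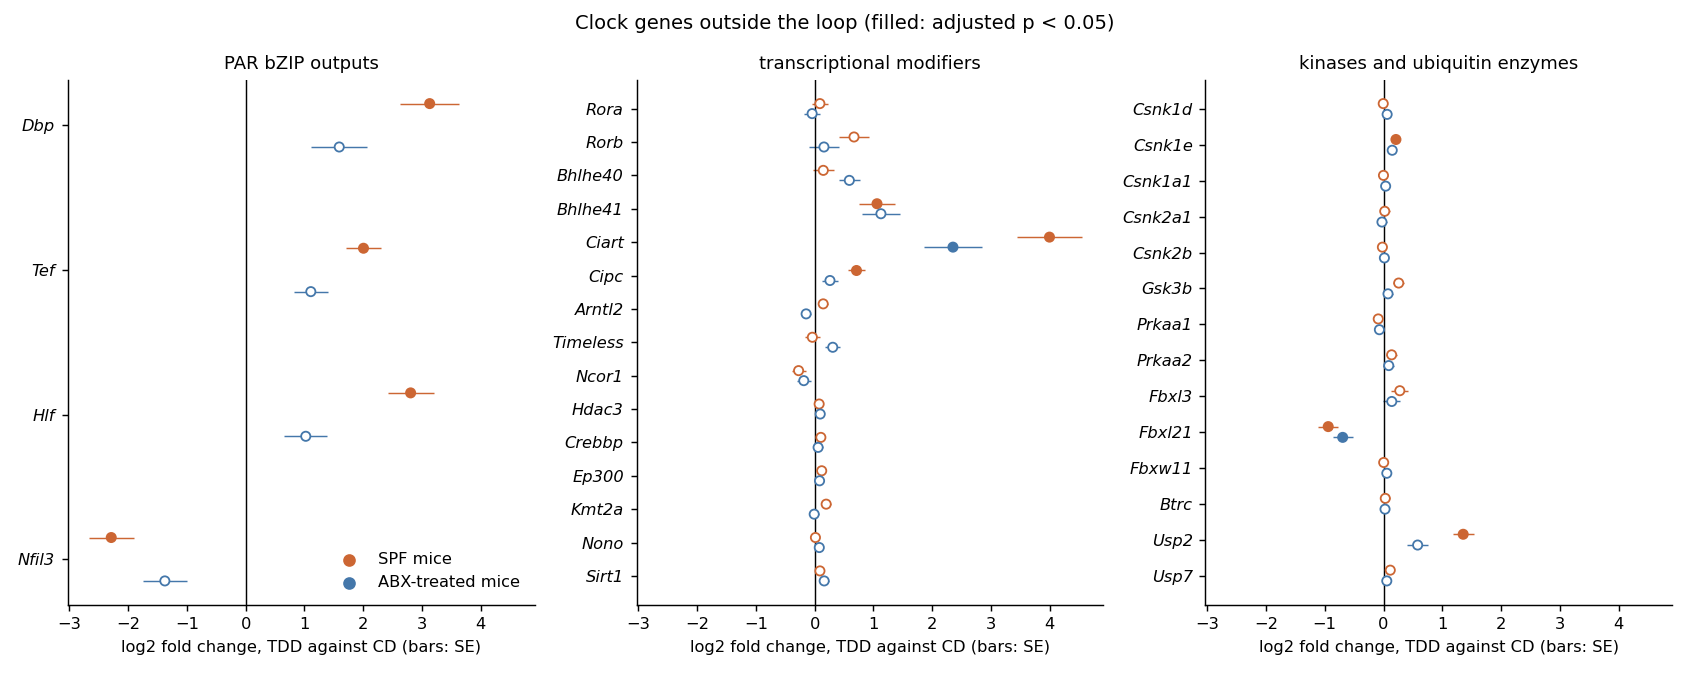
Log2 fold change of TDD against CD (horizontal axes, bars of 1 SE) for the clock genes outside the loop, in orange without and in blue with antibiotics, filled where the adjusted p was under 0.05. The panel titled PAR bZIP outputs also holds Nfil3, which is not of the PAR family. Its 4 D-box factors and Ciart lie farther from 0 in SPF than in ABX-treated mice, though none of these 5 passed the interaction test. Most kinases and ubiquitin enzymes lie near 0.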

How the data were processed

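Polyadenylated RNA of a piece of terminal ileum was sequenced from 20 mice, and kallisto 0.44.0 was used by the authors against GRCm38 transcripts (mm10 in the submitters' processing notes). The deposited gene table holds estimated counts, and the deposited transcript table holds TPM, a level per length that was summed per gene symbol here. Groups came from the labels, 5 mice each. Counts were rounded, the 16306 genes that reached 0.5 CPM before TMM scaling in 1 mouse or more were kept, and TMM scaling and edgeR 4.0.16's quasi-likelihood test were fitted to all 4 groups at once, with Benjamini-Hochberg adjustment over all genes. Robust dispersions were used to match an earlier analysis of these data, and leaving them out, a setting added after seeing the data, changed no count of members called. A gene was called at an adjusted p under 0.05 and at least 2-fold, the limits of the study. Alternatives tried were DESeq2 1.42.0, limma 3.58.1, other scalings and filters, and each mouse left out. All 10 members are named. Other clock genes come from 3 lists and are named where they passed in a diet comparison, and genes of like pattern are the 5 highest and 5 lowest by r. Some items of these lists are not reported here. Members and lists were chosen with earlier results of these data known. Correlations used 100000 two-sided permutations of mice within groups and Benjamini-Hochberg adjustment over the relations of a family (45 pairs, or 20 with marker sums). Both the fit and the permutations were tested on simulated data. No 2 libraries of a group were alike within sampling noise, and same-numbered mice did not deviate together throughout, so mouse numbers were not taken as pairs.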

Additional observations from a re-analysis of the deposited data

Results flagged for a closer look

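Each of the 10 members was checked in each of the 4 groups for a mouse far from the other 4, with Dixon's test at its 95% critical value of 0.71 (the gap to the nearest mouse over the range of the group). Chance flags about 1 in 20 groups, and 7 of the 40 were flagged. CD+ABX mouse 4 was highest of its group in Arntl, at 69.6 CPM, and in Npas2, at 53.5 CPM. TDD+ABX mouse 5 was highest of its group in Cry2, at 38.9 CPM, and in Nr1d2, at 134.9 CPM. CD+ABX mouse 5 was highest of its group in Cry2, at 29.3 CPM. CD mouse 2 was lowest of its group in Npas2, at 24.6 CPM. TDD+ABX mouse 1 was highest of its group in Per1, at 63.5 CPM.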

How the results depend on the processing

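With the mice numbered alike in the labels taken as a replicate block, the number of the 10 clock members called went from 2 to 0 for TDD against CD in ABX-treated mice and from 2 to 1 for antibiotics against none on CD, and moved no other count past 1.5 times. Same-numbered mice deviated from their group means with correlations from -0.38 to 0.26, so the numbers are not known to pair the mice. The call count in ABX-treated mice was also 0 with no filter and 0 with the groups compared fitted alone, and 4 with no fold limit, and it ran from 0 to 3 with 1 mouse left out. On CD, the count of antibiotics against none was 1 under limma-voom, 1 with log2(TPM + 1), 1 with log2(TPM + 0.1), 1 with no filter and 1 with the groups fitted alone, and it ran from 1 to 2 with 1 mouse left out. In SPF mice it ran from 3 to 5, and on TDD and for the interaction it was 0 in every setting. The number of correlated pairs ran from 6 to 12 around 9 with 1 mouse left out. The number of neighbours in the CD order of levels that stood apart ran from 1 to 4 around 2 with 1 mouse left out, and was 1 with counts per kilobase. The causes were not tested. The lowest count of a member in a mouse was 258.

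Log2 fold changes of uncalled members near 0 changed sign in some settings. For antibiotics against none on CD, Clock was 0.0062 with RLE scaling, 0.0062 by DESeq2, 0.011 by limma-voom, 0.0068 with log2(TPM + 1), 0.0086 with log2(TPM + 0.1), 0.0015 with no filter, 0.0027 with 0.5 CPM in at least 5 mice, 0.00069 with the groups fitted alone and 0.0039 with the block. There Nr1d1 was -0.0025 with upper-quartile scaling, -0.044 by limma-voom, -0.027 with log2(TPM + 1) and -0.028 with log2(TPM + 0.1). On TDD, Nr1d2 was 0.057 with log2(TPM + 1) and 0.058 with log2(TPM + 0.1), and the interaction of Cry2 was 0.0095 with log2(TPM + 1). With 1 mouse left out, the diet effect on Cry1 ran from -0.0025 to 0.32 in SPF mice and from -0.089 to 0.21 in ABX-treated mice. The effect of antibiotics on CD ran from -0.090 to 0.051 for Clock, from -0.083 to 0.31 for Per1 and from -0.17 to 0.18 for Nr1d1, and on TDD from -0.11 to 0.013 for Nr1d2. The interaction ran from -0.078 to 0.26 for Npas2, from -0.31 to 0.084 for Cry1 and from -0.23 to 0.029 for Cry2.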
